A study of Mus musculus with 6 samples.

Results

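The core kinases of the Hippo pathway and the proteins that hold them together were followed in mouse embryonic fibroblasts (MEFs) labelled with or without Nf2, the gene for Merlin. The set holds 10 genes, taken by symbol: the kinases Stk3, Stk4, Lats1, Lats2 and Taok1, the adaptors Sav1, Mob1a and Mob1b, and the upstream scaffolds Wwc2 and Frmd6. All 10 were found among the 26231 genes of the deposited table, and 10 of 10 were among the 11067 genes that passed a filter of at least 1 RPKM (reads per kilobase of exon, scaled to the library's total) in at least 3 libraries.

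In the Hippo pathway, MST kinases (genes Stk4 and Stk3) bound to the adaptor SAV1 activate LATS kinases bound to MOB1, and active LATS phosphorylates the co-activators YAP and TAZ, which keeps them out of the nucleus. Merlin, KIBRA-family proteins and FERM-domain proteins act above the kinases at the cell cortex, and Merlin recruits LATS to the membrane. Much of this control is through phosphorylation and localization, which RNA levels do not measure.

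Total RNA was sequenced from 3 libraries of MEF Nf2fl/fl, labelled wild type (control), and 3 libraries labelled MEF Nf2-/-, called KO-labelled below. Both lines came from FVB embryos of approximately 14 days by the labels (the study's methods give an earlier day of gestation), carried Nf2 alleles flanked by loxP sites, were immortalized with SV40 large T antigen, and received GFP lentivirus with a CMV promoter, with Cre recombinase in the line labelled MEF Nf2-/- and without Cre in MEF Nf2fl/fl. Each genotype was a single line kept for 24 h without serum before RNA was taken, so differences between the lines cannot be told apart from differences between these particular cell populations. The replicate numbers carry the same library marks in both lines, A for replicate 1, B for replicate 2 and 2018 for replicate 3, and nothing in the labels says that the replicates were separate cultures, so p-values measure only the spread between these libraries, which may be technical.

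The depth, worked out from the steps between low values, was 13431925 to 19270479 reads in replicates 1 and 2 and 61151498 to 72992330 reads in replicate 3 of each line. The targeted gene was no lower in the KO-labelled libraries. Nf2 (chromosome 11, 4765845 to 4849536, GRCm38) was at 14.3, 13.7 and 13.1 RPKM in MEF Nf2fl/fl replicates 1 to 3 and at 15.4, 12.9 and 13.9 RPKM in the KO-labelled libraries. The log2 fold change was 0.03 ± 0.10 (SE, n = 3 per line, limma adjusted p = 0.987). A value over all exons can miss the loss of a few of them, so the label was neither borne out nor contradicted by this value, and every direction given here follows the labels.

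Of 10 fibroblast markers Vim was the highest, at 536 to 882 RPKM over the 6 libraries, and Lum stayed below 1 RPKM in all of them, while Dcn was at 0.0266 to 0.133 RPKM in the KO-labelled libraries against a mean of 2.73 ± 1.21 RPKM (SD, n = 3) in MEF Nf2fl/fl. The summed level of the markers was 1850 to 2550 RPKM in MEF Nf2fl/fl and 1440 to 1880 RPKM in the KO-labelled libraries. Dcn reached the filter through MEF Nf2fl/fl alone, so its difference is given as values only. Of the 8 other fibroblast markers tested, 2 were lower past the threshold in the KO-labelled libraries, namely Pdgfra and Fn1, where 1.06% of all tested genes passed in either direction. With the replicate number as a block 4 were lower, with Thy1 and Col3a1, where 7.53% of all tested genes passed. Pdgfra was at 12.3, 5.22 and 11.7 RPKM in MEF Nf2fl/fl and at 1.42, 0.657 and 0.962 RPKM in the KO-labelled libraries. Its passage through the filter thus rested mostly on MEF Nf2fl/fl. Of 7 macrophage markers, 5 stayed below 1 RPKM in every library, and the summed level was 9.20 to 12.0 RPKM against 7.53 to 9.41 RPKM, most of it Cd68, with the defining marker Ptprc at no more than 0.00896 RPKM. All markers of epithelial and neural cells, and all those of skeletal muscle that were measured, stayed below 1 RPKM, and of 4 endothelial markers Kdr alone passed the filter. The part of the fibroblast marker difference in the results below was not tested.

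Lats2 was the member with the largest difference between the lines, and it was higher in the KO-labelled library in all 3 same-numbered pairs. Without the pairing, no member passed the threshold, an adjusted p of 0.05 in limma over all tested genes: 0 of 10, where 1.06% of all tested genes did. At an unadjusted p under 0.05 limma gave 1 member, Stk3, where 9.91% of all tested genes passed, and limma with voom on recovered reads gave 0 at the adjusted threshold and 2 at the unadjusted level, where 1.32% and 10.6% of its 11029 genes passed. With the replicate number as a block, 1 of 10 passed, Lats2, where 7.53% of all tested genes did and 2.99% did so as higher. In these whole-culture libraries, fewer cells of a type and less RNA per cell cannot be told apart.

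Before the values, the promoters of Lats2 and Wwc2 are shown, because these are the members that differed between replicate numbers past the threshold, and because Lats2 is itself a known target of YAP and TAZ through TEAD factors, as part of a feedback loop. The Lats2 window is chr14:57746074-57746373 and the Wwc2 window is chr8:47990495-47990794, both on the minus strand of GRCm38.p6 and both from RefSeq, with 250 bases before and 50 bases after the annotated start. Capitals mark GGAATG, the core letters of the TEAD motif, or CATTCC, the same motif on the other strand.

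Lats2: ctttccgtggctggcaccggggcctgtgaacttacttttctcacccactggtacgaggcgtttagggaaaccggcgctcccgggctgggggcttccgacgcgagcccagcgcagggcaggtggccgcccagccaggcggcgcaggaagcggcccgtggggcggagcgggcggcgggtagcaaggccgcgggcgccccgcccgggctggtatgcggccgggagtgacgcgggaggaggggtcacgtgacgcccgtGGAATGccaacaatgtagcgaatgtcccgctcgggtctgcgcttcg

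Wwc2: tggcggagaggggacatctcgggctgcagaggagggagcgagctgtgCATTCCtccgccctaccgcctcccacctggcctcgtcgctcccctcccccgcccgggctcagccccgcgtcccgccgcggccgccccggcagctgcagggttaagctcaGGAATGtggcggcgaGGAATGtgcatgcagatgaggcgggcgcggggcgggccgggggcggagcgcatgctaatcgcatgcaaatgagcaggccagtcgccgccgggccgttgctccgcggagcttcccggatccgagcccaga

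The Lats2 window held 1 match, which began 4 bases after the start, and the Wwc2 window held 3 matches, which began 203, 94 and 79 bases before it. A second annotated start of Lats2 had no match. Sav1 and Mob1a had 1 match each, on the other strand, and Lats1, Stk4, Mob1b, Frmd6 and Taok1 had none, so 4 of the 9 members with a promoter entry held the motif. Across all 32851 RefSeq promoters of this length, 14.7% held at least 1 match and 0.131% held 3 or more. A match in these letters is a description of the sequence and not a binding site.

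**Figure D1:**
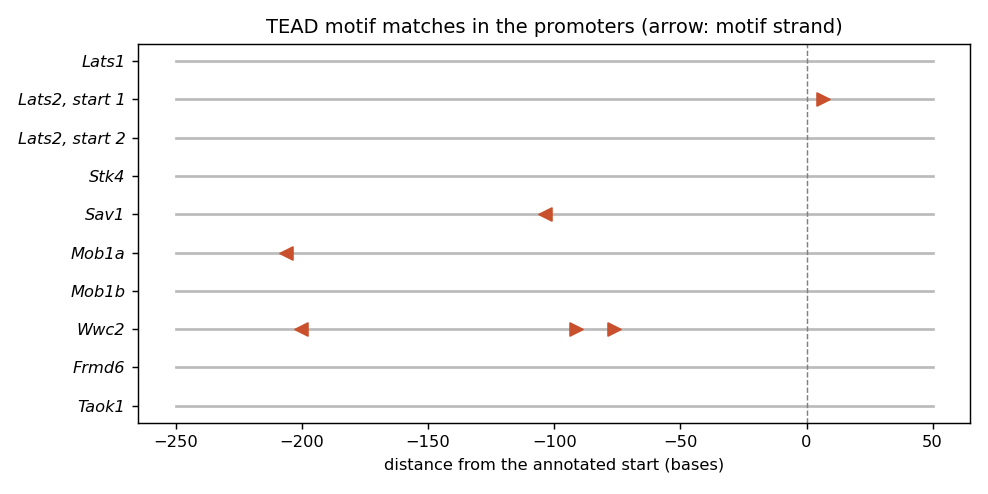
Matches to GGAATG on either strand in the 10 promoter windows of 9 members, by distance in bases from the annotated start (dashed line), with arrows for the strand of the motif. Wwc2 has 3 matches, Lats2 (at its first start), Sav1 and Mob1a have 1 each, and the other windows have none.

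LATS1 and LATS2 are the kinases that phosphorylate YAP and TAZ. Lats2 (chromosome 14, 57689662 to 57758388, minus strand) was at 8.19, 14.8 and 8.58 RPKM in MEF Nf2fl/fl replicates 1 to 3. In the KO-labelled libraries it was at 11.8, 20.7 and 14.7 RPKM. Replicate 2 was the highest library in each line, and MEF Nf2fl/fl replicate 2 lay above the other line's replicates 1 and 3, so the lines overlapped, while inside each replicate number the order was always the same. The mean was 10.5 ± 3.72 RPKM in MEF Nf2fl/fl and 15.8 ± 4.54 RPKM in the KO-labelled libraries (SD, n = 3 each), a ratio of 1.50. Within pairs the ratio was 1.45 for replicate 1, 1.40 for replicate 2 and 1.71 for replicate 3.

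On the log2(RPKM + 1) scale, which understates changes of low genes, the Lats2 difference was 0.55 ± 0.27 (SE, adjusted p = 0.617 in limma; exact permutation p = 0.3, where the smallest p that 3 against 3 allows is 0.1). Without KO-labelled replicate 2 it was 0.346, and without MEF Nf2fl/fl replicate 2 it was 0.802. With the replicate block the same difference had an SE of 0.08, a 95% interval of 0.36 to 0.74 and an adjusted p of 0.0159. The blocked call was lost without the pair of replicate 1 (adjusted p = 0.052) and kept without replicate 2 (0.0439) or replicate 3 (0.048). Without replicate 2 of both lines Lats2 also passed with no block (adjusted p = 0.0419). Of the 31-base stretches in its exons, 41.75% also occur in other annotated genes, 41.68% in Gm49361, an overlapping gene on the same strand that was listed at no more than 0.00747 RPKM.

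Lats1 (chromosome 10, 7681214 to 7716460, plus strand) was nearly level. It was at 10.5, 11.5 and 9.50 RPKM in MEF Nf2fl/fl and at 11.0, 11.7 and 10.2 RPKM in the KO-labelled libraries. The lines overlapped throughout, and the log2 fold change was 0.06 with a 95% interval of -0.19 to 0.30 (limma adjusted p = 0.973).

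The ratio of Lats2 to Lats1 inside each library, which library size does not move, was 0.777, 1.29 and 0.903 in MEF Nf2fl/fl replicates 1 to 3. In the KO-labelled libraries it was 1.08, 1.78 and 1.44. On the log2(RPKM + 1) scale the mean ratio was -0.04 ± 0.34 in MEF Nf2fl/fl and 0.45 ± 0.34 in the other line (SD, n = 3 each), a difference of 0.49 that the exact permutation test did not separate from the spread (p = 0.2, and 0.45 adjusted over 3 paralogue ratios). The same-numbered pairs differed by 0.43, 0.44 and 0.62, all in the same direction.

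**Figure D2:**
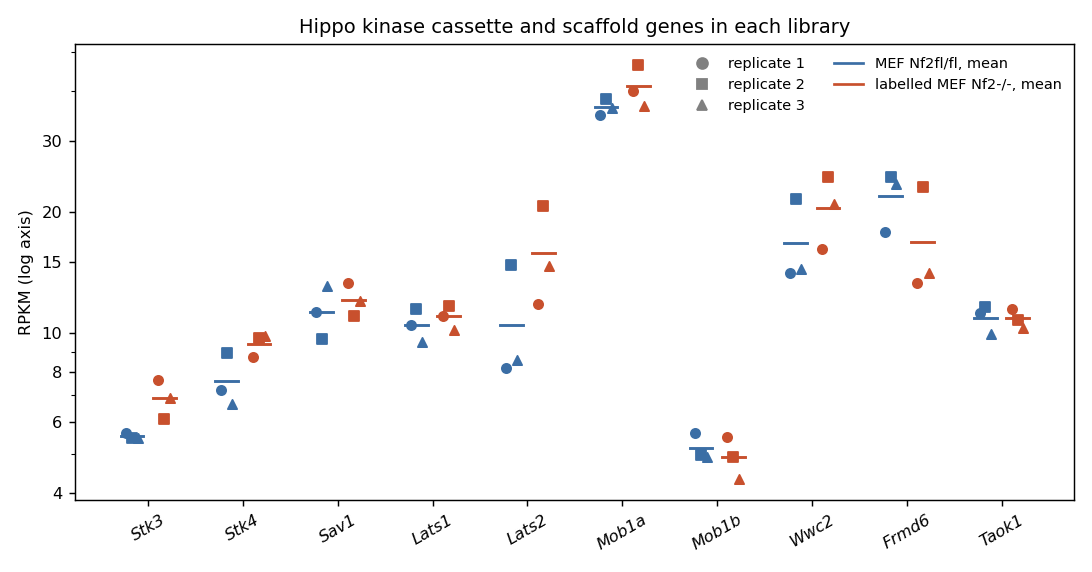
RPKM (log axis) of the 10 genes in each of the 6 libraries, with a bar at the mean of each line and a symbol for each replicate number. The lines overlap for every gene except Stk3, and Lats1, Lats2, Mob1a, Wwc2 and Frmd6 are highest in replicate 2 of both lines.

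The MST kinases sit at the head of the cassette. Stk3, which encodes MST2 (chromosome 15, 34875496 to 35178921, minus strand), was at 5.64, 5.48 and 5.50 RPKM in MEF Nf2fl/fl and at 7.65, 6.12 and 6.89 RPKM in the KO-labelled libraries. It was the only member whose lines did not overlap, 1 of 10, where 15.1% of all tested genes did not. The means were 5.54 ± 0.087 and 6.89 ± 0.764 RPKM (SD, n = 3 each), but the log2 difference of 0.27 ± 0.10 did not pass the threshold (limma adjusted p = 0.411, and 0.0974 with the block; exact permutation p = 0.1, the smallest possible).

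Stk4, which encodes MST1 (chromosome 2, 164070322 to 164155524, plus strand), was at 7.23, 8.92 and 6.66 RPKM in MEF Nf2fl/fl and at 8.73, 9.72 and 9.82 RPKM in the KO-labelled libraries. MEF Nf2fl/fl replicate 2 lay just above the other line's replicate 1, so the lines overlapped by that library alone. The log2 difference was 0.28 ± 0.12 (limma adjusted p = 0.511), with 0.24, 0.11 and 0.50 in the pairs. The ratio of Stk3 to Stk4 was 0.614 to 0.825 in MEF Nf2fl/fl and 0.630 to 0.877 in the other line, and its mean log2 difference between the lines was -0.02 (exact permutation p = 1.0).

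SAV1 is the adaptor that holds the MST kinases and brings them to LATS. Sav1 (chromosome 12, 69965012 to 69987002, minus strand) was at 11.3, 9.69 and 13.1 RPKM in MEF Nf2fl/fl and at 13.3, 11.0 and 12.0 RPKM in the KO-labelled libraries. The pairs did not share a direction, with 0.22, 0.16 and -0.11 on the log2 scale. The log2 fold change was 0.09 with a 95% interval of -0.22 to 0.40 (limma adjusted p = 0.954). Sav1 overlaps Atl1 on the opposite strand and shares 24.99% of its 31-base stretches with other genes. Whether counting used the strand is not stated, and Atl1 itself was listed at only 0.261 to 0.537 RPKM.

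MOB1A and MOB1B bind LATS and are needed for its activity. Mob1a (chromosome 6, 83326016 to 83343776, plus strand) was the most abundant member, at 34.9, 38.1 and 36.3 RPKM in MEF Nf2fl/fl and at 40.0, 46.4 and 36.6 RPKM in the KO-labelled libraries. Mob1b (chromosome 5, 88720855 to 88764220, plus strand) was the least abundant, at 5.66, 4.98 and 4.91 RPKM against 5.52, 4.92 and 4.34 RPKM. The paralogues lay on opposite sides of 0 in every pair, Mob1a at 0.19, 0.28 and 0.01 on the log2 scale and Mob1b at -0.03, -0.02 and -0.14. Neither passed the threshold (limma adjusted p = 0.814 for Mob1a and 0.970 for Mob1b). The ratio of Mob1a to Mob1b was 6.18 to 7.64 in MEF Nf2fl/fl and 7.24 to 9.43 in the other line, a log2 difference of 0.22 (exact permutation p = 0.3, adjusted 0.45) that was 0.133 without KO-labelled replicate 2 and 0.139 without MEF Nf2fl/fl replicate 1.

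WWC2 is a KIBRA-family scaffold that binds LATS. Wwc2 (chromosome 8, 47823959 to 47990924, minus strand) was at 14.1, 21.5 and 14.4 RPKM in MEF Nf2fl/fl and at 16.2, 24.4 and 20.9 RPKM in the KO-labelled libraries. As for Lats2, replicate 2 was the highest in each line and the KO-labelled library was the higher in all 3 pairs, by 0.18, 0.18 and 0.51 on the log2 scale. The log2 fold change of 0.29 ± 0.21 did not pass the threshold without the block (limma adjusted p = 0.821) or with it (0.123), and it was 0.158 without KO-labelled replicate 2 and 0.474 without MEF Nf2fl/fl replicate 2.

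FRMD6, a FERM-domain protein related to fly Expanded, is placed upstream of the kinases. Frmd6 (chromosome 12, 70825514 to 70902234, plus strand) was at 17.8, 24.4 and 23.5 RPKM in MEF Nf2fl/fl and at 13.3, 23.0 and 14.1 RPKM in the KO-labelled libraries. It was the member with the lowest fold change, and the KO-labelled library was the lower in all 3 pairs, with differences of -0.39, -0.08 and -0.69 on the log2 scale. The mean was 21.9 ± 3.58 RPKM against 16.8 ± 5.37 RPKM (SD, n = 3 each), and the log2 fold change of -0.39 ± 0.23 did not pass the threshold (limma adjusted p = 0.721, and 0.131 with the block). It was -0.624 without KO-labelled replicate 2 (limma adjusted p = 0.182) and -0.25 without KO-labelled replicate 1. Of its 31-base stretches 17.18% occur in the pseudogene Gm5780, listed at 0.233 RPKM at most.

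TAOK1 phosphorylates and activates the MST kinases. Taok1 (chromosome 11, 77529162 to 77607815, minus strand) was at 11.2, 11.6 and 9.95 RPKM in MEF Nf2fl/fl and at 11.5, 10.8 and 10.3 RPKM in the KO-labelled libraries. It varied least of the 10 genes, with a 95% interval for the log2 difference of -0.23 to 0.22 (limma adjusted p = 0.998), and the sign of its fold change turned with the scaling.

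**Figure D3:**
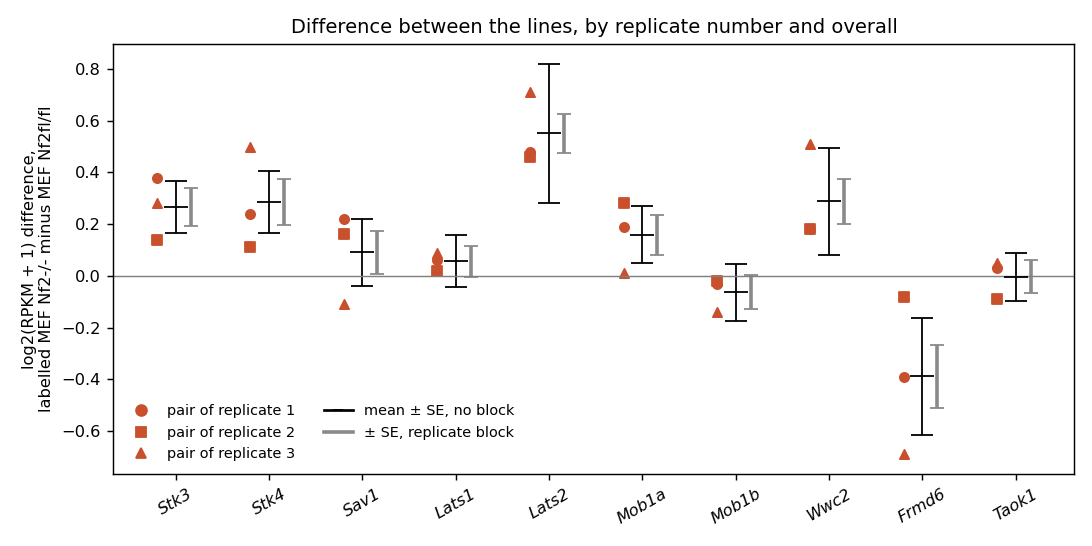
Difference in log2(RPKM + 1) between the KO-labelled libraries and MEF Nf2fl/fl for each same-numbered pair (symbols), with the mean ± SE without (black) and with (grey) the replicate block. The 3 pairs lie above 0 for Lats2 (0.46 to 0.71), Stk3, Stk4, Lats1, Mob1a and Wwc2 and below 0 for Frmd6 and Mob1b.

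Across the members, the KO-labelled libraries were higher in 8, 7 and 7 of 10 genes in the pairs of replicates 1, 2 and 3, where 47.8%, 48.0% and 51.0% of all tested genes were. The fold change was above 0 for 7 of 10 members and for 47.9% of all tested genes. In 8 of 10 genes all 3 pairs had the same direction, 6 higher and 2 lower, where 46.9% of all tested genes had, 22.3% as higher and 24.6% as lower. The median log2 fold change was 0.12 over the 10 members and -0.01 over all tested genes, and the median of its size was 0.21 against 0.10. With the block, 5 of 10 members had an unadjusted p under 0.05, where 23.2% of all tested genes did.

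Levels were set side by side on the RPKM scale, which is per exon length, and the part of shared sequence, which differs between the members, in these levels was not tested. Mob1a had the highest mean at 38.7 RPKM, followed by Frmd6 (19.3), Wwc2 (18.6), Lats2 (13.1), Sav1 (11.7), Taok1 (10.9), Lats1 (10.7), Stk4 (8.51), Stk3 (6.21) and Mob1b (5.06). Only Mob1a was separated from its neighbour in this order, with its lowest library above every library of Frmd6, while the ranges of all other neighbours overlapped. Frmd6 was above Wwc2 in 3 of 3 MEF Nf2fl/fl libraries and below it in 3 of 3 KO-labelled libraries, so the order of these neighbours by the mean over both lines holds in MEF Nf2fl/fl only. Lats2 was above Sav1 in 1 of 3 MEF Nf2fl/fl libraries and in 2 of 3 KO-labelled libraries, with means of 10.5 against 11.3 RPKM in the first and 15.8 against 12.1 RPKM in the second, so its place in the order also differs between the lines. Wwc2 was above Lats2, Lats1 above Stk4, and Stk4 above Stk3 in 6 of 6.

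The members differed in how much they moved between libraries. Over the 6 libraries the SD of log2(RPKM + 1) was 0.47 for Lats2, 0.37 for Frmd6 and 0.32 for Wwc2, larger than in 92.7%, 86.8% and 82.0% of tested genes. It was 0.08 for Taok1 and 0.10 for Lats1, where the median over all tested genes was 0.17. The estimated reads behind a member's value ranged from 463, for Stk3 in MEF Nf2fl/fl replicate 1, to 21057, for Wwc2.

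Part of this spread followed the replicate number. In a limma model with line and number together, 2 of 10 members differed between replicate numbers past the threshold, Lats2 (adjusted p = 0.013) and Wwc2 (0.037), where 21.2% of all tested genes did, so the members' share was close to that of genes in general. No member passed when replicate 2 of either line was left out, and 1 did when replicate 1 of either line was. In Lats2 replicate 2 exceeded the mean of replicates 1 and 3 by 0.75 in MEF Nf2fl/fl and by 0.61 in the other line on the log2 scale, and in Wwc2 by 0.56 and 0.39. Replicate 2 was the highest in both lines for 5 of 10 members and for 23.2% of all tested genes. Of 20 YAP and TAZ targets tested, a list that holds Lats2, replicate 2 was the highest in both lines for 12 and the lowest in both for 4, where 39.5% of all tested genes were lowest there. Cyr61, the most abundant of these targets, was at 117, 733 and 129 RPKM in MEF Nf2fl/fl and at 229, 762 and 263 RPKM in the KO-labelled libraries.

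For each member, the tested gene outside the pathway lists with the most similar pattern was found by the root mean square difference of centred log2(RPKM + 1) values over the 6 libraries. Lats2 was closest to the protocadherin gene Pcdh18 (0.068), which was at 8.49, 17.9 and 9.83 RPKM in MEF Nf2fl/fl and at 14.0, 24.4 and 16.8 RPKM in the KO-labelled libraries. Wwc2 was closest to Fam198b (0.047), Frmd6 to Relb (0.050), Stk4 to Asf1b (0.041) and Stk3 to Sec61a1 (0.026). Sav1 was closest to Zfp825 (0.017), Taok1 to Rock1 (0.018), Mob1a to Sidt2 (0.020) and Mob1b to Srrm2 (0.026). Among the members themselves, Lats1 and Taok1 were the most alike (0.058), and Lats2 was closest to Wwc2 (0.166).

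Around the cassette, 83 other genes of the pathway in 8 lists were examined, of which 72 were tested. Foxf2 reached the filter through MEF Nf2fl/fl alone and is left out of the counts. Without the block 2 of the other 71 passed the threshold, or 2.82%, beside 1.06% of all tested genes, and with it 10 passed, 7 higher and 3 lower, or 14.1%, beside 7.53% of all tested genes. In the 6 lists of regulators upstream of YAP and TAZ, 0 of 47 passed in limma without the block, with 5 (10.6%) at an unadjusted p under 0.05 beside 9.91% of all tested genes. With the block 3 passed, namely Wwc1, Rassf5 and Rassf6, or 6.38%, a share no higher than the 7.53% of all tested genes.

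Wwc1 encodes KIBRA, the partner of Merlin in LATS activation and a paralogue of WWC2. It was at 6.56, 9.38 and 6.04 RPKM in MEF Nf2fl/fl and at 12.0, 15.8 and 14.1 RPKM in the KO-labelled libraries. The lines did not overlap, and the log2 fold change was 0.86 ± 0.17 (limma adjusted p = 0.101, and 0.00922 with the block). The blocked call held with each pair left out in turn. No other gene among the 10 tested in the list of Merlin, KIBRA, FAT and polarity genes passed, and that list had a median log2 fold change of 0.02.

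RASSF proteins bind the MST kinases. Rassf5 was at 2.19, 3.07 and 2.11 RPKM in MEF Nf2fl/fl and at 1.48, 2.08 and 1.26 RPKM in the KO-labelled libraries. Its log2 fold change of -0.41 passed the threshold with the block (limma adjusted p = 0.0324) and not without it (0.478). Rassf6 was near the filter at 0.174, 1.40 and 0.510 RPKM against 0.623, 2.54 and 1.05 RPKM, and its log2 fold change of 0.49 passed with the block (limma adjusted p = 0.0303) and not without it (0.829). Both blocked calls were lost when any single pair was left out. The 4 RASSF genes tested had a median log2 fold change of -0.05.

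No gene passed, without or with the block, in the other 4 upstream lists, of which 7 MAP4K and TAO kinases, 15 STRIPAK phosphatase complex genes, 6 LATS inhibitors, and 5 NDR kinases and other MOB genes were tested. Their median log2 fold changes were 0.07, 0.04, 0.11 and -0.05. Single genes ranged from -0.28 to 0.56, -0.09 to 0.26, -0.13 to 0.26 and -0.08 to 0.07 in the same order of lists. The highest gene of each was Map4k4 (29.0 to 34.7 RPKM over the 6 libraries), Ppp2r1a (77.1 to 88.6 RPKM), Ajuba (12.4 to 27.0 RPKM) and Mob3a (13.0 to 24.0 RPKM).

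Downstream of LATS, all 11 YAP, TAZ, TEAD and angiomotin genes had log2 fold changes between 0.00 and 0.79, with a median of 0.20. Yap1 was level at 0.00 ± 0.10, and Wwtr1, which encodes TAZ, was at 0.19 ± 0.11 (limma adjusted p = 0.702). Vgll4, which encodes a competitor of YAP for TEAD, was at 4.63, 5.70 and 5.41 RPKM in MEF Nf2fl/fl and at 9.72, 10.5 and 8.84 RPKM in the KO-labelled libraries, and it rose by 0.77 ± 0.11 on the log2 scale (limma adjusted p = 0.0352). Without the block the call remained only when MEF Nf2fl/fl replicate 2 was the library left out (adjusted p = 0.0393, and 0.0682 to 0.15 without each of the other 5). It was also lost with no filter on low values (0.137) and with the 2018 mark as a covariate (0.0724), while its blocked call (0.00763) held without any single pair.

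The angiomotins bind YAP and TAZ in the cytoplasm and activate LATS. Amotl2 was at 74.6, 124 and 73.3 RPKM in MEF Nf2fl/fl and at 140, 177 and 143 RPKM in the KO-labelled libraries, with no overlap. Over all 6 libraries it passed with the block (log2 fold change 0.79, limma adjusted p = 0.0162) and not without it (0.247), and it also passed without the block when MEF Nf2fl/fl replicate 2 was left out (0.0325). Amot passed with the block (0.55, limma adjusted p = 0.0478) and not without it (0.408), and each of these blocked calls was kept in 1 of 3 fits that left out a pair.

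**Figure D4:**
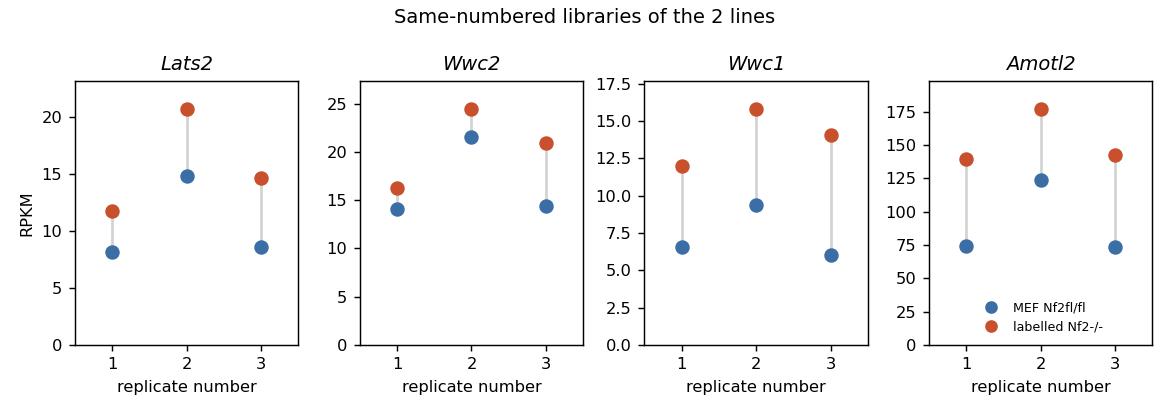
RPKM of Lats2, Wwc2, Wwc1 and Amotl2 by replicate number, with a grey line joining the same-numbered libraries of MEF Nf2fl/fl (blue) and the line labelled MEF Nf2-/- (red). The red point is above the blue one in all 3 pairs of each gene, and replicate 2 is the highest in both lines.

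Of 19 YAP and TAZ targets tested, Foxf2 left out, a list that also holds Lats2 and Amotl2, 1 passed without the block and 6 with it, 4 higher and 2 lower, where 1.06% and 7.53% of all tested genes passed. The first was Tgfb2, a TGF-beta ligand, at 2.85, 3.14 and 3.14 RPKM against 9.71, 7.09 and 11.9 RPKM (log2 fold change 1.36 ± 0.17, limma adjusted p = 0.0301), a call that remained without replicate 2 of either line (0.0402 and 0.00953) and was lost without each of the other 4 libraries (0.0992 to 0.142) and with no filter on low values (0.134). With the block Rbms3 rose (0.69, adjusted p = 0.0159), while Axl (-0.49, 0.0310) and Dock5 (-0.50, 0.0145) fell. Foxf2 was at 1.32, 2.77 and 1.39 RPKM in MEF Nf2fl/fl and below the filter of 1 RPKM in every KO-labelled library, at 0.351, 0.878 and 0.440 RPKM. Because it reached the filter through MEF Nf2fl/fl alone, its difference is given as values. Leaving out a pair kept the blocked call of Rbms3 in 2 of 3 fits, and lost those of Axl and Dock5 in all 3. The median of the whole list of 20, Foxf2 included, was 0.16, and genes that are known targets moved in both directions.

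**Figure D5:**
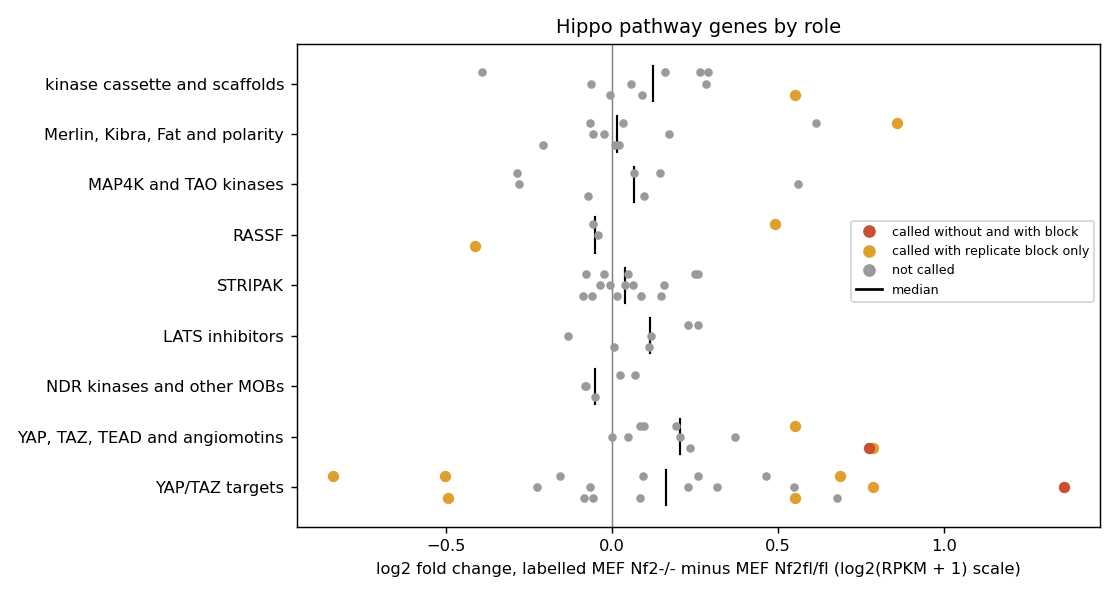
Log2 fold change of each tested gene, KO-labelled libraries minus MEF Nf2fl/fl on the log2(RPKM + 1) scale, for the 10 members and 8 lists of other pathway genes, with a bar at each list's median and colour for calls without and with the replicate block. The median is 0.12 for the members and 0.20 for the YAP, TAZ, TEAD and angiomotin genes, and Vgll4 (0.77) and Tgfb2 (1.36) are the only genes called without the block.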

How the data were processed

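The authors deposited a single table of 26231 genes in 6 libraries, taken here as RPKM from its values: among values worth up to 20 reads, 83.7% to 85.5% per library were whole multiples of a single read within 0.05 once exon length (GENCODE vM21, known for 25983 genes) was taken out, where chance gives 10%. The depths rest on the same steps. GENEWIZ made the libraries and analysed the reads. The submitters' processing notes name the build mm10, and the aligner, the counter, and whether reads or fragments were counted are not given in the sources used here.

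Values were set to log2(RPKM + 1). Genes that reached 1 RPKM in 3 or more libraries were tested with limma 3.58.1 (R 4.3.3; lmFit, eBayes, trend and robust settings on), two-sided, without covariates, with Benjamini-Hochberg adjustment over 11067 genes and a threshold of 0.05. Single values had an exact permutation test (scipy 1.17.1, Python 3.11.15). The fitting code was tested on simulated data. Figures used matplotlib 3.10.9.

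Same-numbered libraries deviated together from their line means (r = 0.552, 0.819 and 0.516 across genes for replicates 1, 2 and 3, genes not being independent). The 3 deviations of a gene in a line sum to 0. A shift shared by replicate 2 alone thus also makes replicates 1 and 3 deviate together. These values therefore cannot show that replicates 1 and 3 match by number. A second fit has the replicate number as a block, with pairs taken from the numbers that the labels give. Other alternatives were no filter or a filter of 5 RPKM, a pseudocount of 0.1, median centring, quantile normalization, a threshold of 0.1, limma without trend and robust settings, the 2018 mark as a covariate, voom on recovered reads, and each library or number left out. Combinations with the block were chosen after seeing the data.

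The members and gene lists were chosen with earlier results of these data known. Genes were named by rule: all members, Nf2, other pathway genes past the threshold without or with the block, otherwise the highest gene of a list, the gene nearest to each member (that of Lats1 is not reported here), and the highest markers. Yap1, Wwtr1, Cyr61, Ptprc, the fibroblast markers other than Vim, and the overlapping genes were added after their values were seen. Cldn22 and Cldn24, which overlap Wwc2 on the other strand and account for most of the 7.03% of its 31-base stretches found elsewhere, Myod1 and Actc1 were not analysed here. Other members shared at most 1.19%. Stk3 has no promoter entry.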

Additional observations from a re-analysis of the deposited data

How the results depend on the processing

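The count of members past the threshold was 0 and became 1 (Lats2) with the replicate block, with the block plus each other choice tried with it, and without replicate 2 (0 to 1 over all libraries or numbers left out), the exception being the block without replicate 1. The cause was not tested. The count over all genes was 117 and became 9 without a filter, 63 with a filter of 5 RPKM, 62 with the 2018 mark as a covariate, 833 with the block, and 0 to 484 with libraries or numbers left out (0 without replicate 1 and 0 without replicate 3, where 578 and 556 had an unadjusted p under 0.05). The block gave 1175 with voom, 798 without trend and robust settings, 785 with quantile normalization, 812 with median centring, 827 with a pseudocount of 0.1, 541 with a filter of 5 RPKM, and 320, 454 and 419 without replicates 1, 2 and 3. By list, calls were 0 for Merlin, KIBRA, FAT and polarity genes (1 with the block, 0 to 1 with libraries or numbers left out), 0 for MAP4K and TAO kinases (0 to 1 left out), 0 for RASSF genes (2 with the block), 1 for YAP, TAZ, TEAD and angiomotin genes (0 without a filter, 0 with the 2018 mark, 3 with the block, 0 to 2 left out) and 1 for YAP and TAZ targets other than the members (0 without a filter, 2 with voom, 0 to 6 left out, where the 6 count Foxf2). With the block the targets gave 6 calls with Lats2 counted and Foxf2 left out. Foxf2 reached the filter through MEF Nf2fl/fl alone. Between replicate numbers, 2 members passed (0 without a filter, 0 to 3 with libraries or numbers left out).

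With libraries or numbers left out, the log2 fold change ranged from 0.346 to 0.802 for Lats2 (lowest without the replicate 2 library labelled MEF Nf2-/-), 0.177 to 0.391 for Stk4, 0.158 to 0.474 for Wwc2, -0.624 to -0.238 for Frmd6, 0.069 to 0.235 for Mob1a (lowest without the same library), -0.007 to 0.117 for Lats1, -0.009 to 0.192 for Sav1, -0.135 to 0.009 for Mob1b, -0.063 to 0.039 for Taok1 and -0.030 to 0.091 for Nf2, and the difference in the Stk3 to Stk4 ratio from -0.136 to 0.082, in the Mob1a to Mob1b ratio from 0.133 to 0.308 and in the Lats2 to Lats1 ratio from 0.332 to 0.685. Taok1 turned to 0.009 with quantile normalization, with and without the block, to 0.003 with voom, and to 0.039 with the block without replicate 2, and Nf2 was -0.001 with the block without replicate 1. The block changed no other call of a member. The quasi-likelihood test of edgeR, planned only for a table of counts, was not run, and voom on recovered reads was the fit on reads. With 3 libraries a line, exact tests cannot go below 0.1, and low genes are less precise in replicates 1 and 2, which are shallower.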
